A study of Homo sapiens with 4 samples.

Results

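The epithelial-mesenchymal transition (EMT) drivers *ZEB1*, *ZEB2*, *SNAI1* and *SNAI2*, the mesenchymal filament gene *VIM*, and the epithelial gatekeepers *ESRP1*, *ESRP2*, *GRHL2*, *OVOL1* and *OVOL2* were followed in FLO-1LM and FLO-1 parental cells. These 10 genes were taken by symbol from the 63677 Ensembl genes of the count data, not by a cutoff on their values. Earlier results of these data were known when they were chosen. Both lines expressed *VIM* and *ZEB1*, and lacked or nearly lacked counts for 4 of the 5 gatekeepers. Of the 10 genes, 5 had enough counts for testing, and 1 of them, *ZEB2*, was called higher in FLO-1LM by edgeR, a call near the threshold that DESeq2 and limma voom did not make. No member was called lower.

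FLO-1 is an established cell line from a human esophageal adenocarcinoma (EAC). FLO-1LM is a subline that the study isolated from a liver metastasis after serial subcutaneous passage of FLO-1 in NSG mice, which are severely immunodeficient, and it was expanded in culture before use. Each line was measured by RNAseq in 2 libraries, from cells harvested at 80% confluency and 24 hours after fresh medium. The study states no drug treatment for these cells. It gave both lines a luciferase-eGFP reporter for imaging, and does not state whether the sequenced cells carried it. By its account the lines differ in their history in mice and in culture, and genetic differences between them were not tested here. Whether the replicates were grown as separate cultures is not stated, so p-values measure the spread between libraries, which may be technical, and a single subline stands for FLO-1LM.

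Counts totalled 22646123 and 25920336 in the FLO-1LM libraries and 21750508 and 19060310 in the parental libraries. The FLO-1LM pair differed more than the parental pair: among 13408 well-counted genes, 695 differed by more than 1.5-fold between the FLO-1LM libraries and 285 between the parental libraries. Columnar carcinoma markers summed to between 10817 and 16800 counts per library, carried by the keratins, while *EPCAM*, a surface glycoprotein of most carcinomas, had between 3 and 12 counts. The 7 intestinal and Barrett markers summed to between 1013 and 1122 counts per library. Nearly all of these were *GATA4* (798 to 952) and *CDX2* (157 to 182), and *TFF1* and *TFF3* had no count in any library. Of markers of other human cell types, fibroblast markers summed to between 210 and 321 counts, most of them *COL1A1*, with *COL3A1*, *DCN* and *THY1* at 0. Leukocyte markers summed to between 48 and 88 with *PTPRC* at 0, endothelial markers to between 1 and 6 with *KDR* at 0, and hepatocyte markers to between 1 and 7 with *ALB*, *APOB* and *TTR* at 0. Reads were mapped to the human genome and counted on human genes, so these counts cannot show whether mouse cells of the host were present.

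During EMT, epithelial cells loosen their junctions and keratin network and gain motility and vimentin filaments. The zinc finger repressors ZEB1, ZEB2, SNAI1 and SNAI2 bind E-box sequences in promoters of epithelial genes such as *CDH1*, which encodes E-cadherin. The epithelial state is kept by GRHL2, which activates junction genes, by OVOL1 and OVOL2, which repress *ZEB1*, and by ESRP1 and ESRP2, which direct epithelial splicing. The miR-200 family of microRNAs represses *ZEB1* and *ZEB2* messages, and the ZEB proteins repress the miR-200 genes in return.

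The mature miR-200 sequences are shown because their seed, bases 2 to 8, decides which messages are recognised. The seed is in capitals, 5′ to 3′, as in RefSeq for GRCh38.p14, with miR-200b, miR-200a and miR-429 between chr1:1167160 and 1169076 and miR-200c and miR-141 between chr12:6963742 and 6964176, all on the plus strand.
hsa-miR-200b-3p: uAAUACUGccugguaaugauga
hsa-miR-200a-3p: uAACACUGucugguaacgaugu
hsa-miR-429: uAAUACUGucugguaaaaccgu
hsa-miR-200c-3p: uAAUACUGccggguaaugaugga
hsa-miR-141-3p: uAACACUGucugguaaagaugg
The members miR-200b, miR-429 and miR-200c share the seed AAUACUG, and miR-200a and miR-141 share AACACUG. The 5 miR-200 genes and *MIR205HG* had no count in any of the 4 libraries, which allows up to 3 counts in each. Gene counts from RNAseq do not measure mature microRNAs.

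The 250 bases before the start are shown for *ZEB2*, the member that passed the test, for *VIM*, whose start lies within the span of an antisense gene described below, and for 1 of the 7 *ZEB1* starts, which holds an E-box. The E-box searched was CAGGTG or its reverse complement CACCTG, shown in capitals. The sequences are from RefSeq, were placed on GRCh37 by exact match, and are chr2:145277687-145277936 on the minus strand for *ZEB2*, chr10:17269990-17270239 on the plus strand for *VIM* and chr10:31607096-31607345 on the plus strand for *ZEB1*, each written 5′ to 3′ on the strand of its gene.
ZEB2: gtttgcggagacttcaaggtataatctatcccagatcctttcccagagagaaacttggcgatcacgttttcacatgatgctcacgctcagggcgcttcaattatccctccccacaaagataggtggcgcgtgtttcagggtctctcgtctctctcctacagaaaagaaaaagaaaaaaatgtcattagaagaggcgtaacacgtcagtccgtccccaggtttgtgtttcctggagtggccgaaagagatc
VIM: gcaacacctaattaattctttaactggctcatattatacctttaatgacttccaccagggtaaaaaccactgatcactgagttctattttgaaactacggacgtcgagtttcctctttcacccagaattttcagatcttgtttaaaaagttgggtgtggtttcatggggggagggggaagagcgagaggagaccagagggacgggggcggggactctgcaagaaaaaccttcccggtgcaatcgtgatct
ZEB1: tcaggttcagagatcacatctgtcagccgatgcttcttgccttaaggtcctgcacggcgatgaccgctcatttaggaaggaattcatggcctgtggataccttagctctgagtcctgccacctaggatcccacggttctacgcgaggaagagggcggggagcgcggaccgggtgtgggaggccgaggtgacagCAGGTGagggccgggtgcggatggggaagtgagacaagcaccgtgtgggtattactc
The *ZEB2* and *VIM* windows held no such E-box, and 2 of the 7 *ZEB1* windows held at least 1, in the sequence above at 57 bases before the start. Of 35116 promoters searched in the same way, 6143 (17.5%) held the motif. A match is a description of letters and was not read as binding.

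*ZEB1* (ENSG00000148516, chr10:31607424-31818742, plus strand) encodes the ZEB family repressor that was the more abundant of the pair. It had 1519 and 1970 counts in FLO-1LM and 1468 and 1244 in parental cells, or 68.2 and 76.5 CPM (library-size-scaled counts with TMM factors) against 66.6 and 64.9. The ranges did not overlap, as for 42.6% of all tested genes, and the second FLO-1LM library stood above the rest. The means were 72.4 ± 5.9 and 65.7 ± 1.2 CPM (SD, n = 2 each). The log2 fold change of 0.14 (SE 0.091, 95% interval −0.05 to 0.33) did not pass the test across all genes (edgeR quasi-likelihood test, Benjamini-Hochberg adjusted p = 0.599). The upper end of this interval, 0.33 log2 units, reflects the spread between libraries, which may be technical.

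*ZEB2* (ENSG00000169554, chr2:145121931-145278624, minus strand) encodes the related repressor. It had 689 and 781 counts in FLO-1LM and 505 and 408 in parental cells, or 30.9 and 30.3 CPM against 22.9 and 21.3. Both FLO-1LM libraries lay above both parental libraries, and the ranges of the lines also did not overlap for 42.6% of all tested genes. *ZEB2* rose 1.39-fold, from 22.1 ± 1.2 to 30.6 ± 0.42 CPM (SD, n = 2 each), with a log2 fold change of 0.47 (SE 0.12, 95% interval 0.22 to 0.72, edgeR adjusted p = 0.0457). This value lies just inside the threshold of 0.05, and the call was not made by DESeq2 (adjusted p = 0.135) or by limma voom, the method of the study (adjusted p = 0.0538). It was also lost without the first parental library (log2 fold change 0.53, adjusted p = 0.350) or the second (0.42, adjusted p = 0.570).

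*SNAI1* (ENSG00000124216, chr20:48599517-48605423, plus strand), encoding Snail, had 62 and 79 counts in FLO-1LM and 66 and 50 in parental cells. The corresponding values of 2.78 and 3.07 CPM against 2.99 and 2.61 CPM overlapped. The log2 fold change was 0.06 with a wide interval from −0.61 to 0.74 (SE 0.32, edgeR adjusted p = 0.969), which does not exclude a change of moderate size in either direction. The sign turned without the second FLO-1LM library (−0.01) or the second parental library (−0.032). *SNAI2*, encoding Slug, had 9 counts in the second FLO-1LM library (0.350 CPM, exact Poisson 95% interval 4.12 to 17.1 counts) and 0 in each of the other libraries. A count of 0 allows up to 3 counts as a one-sided limit, or 0.117 to 0.156 CPM across the libraries, and up to 3.69 counts as the upper end of the two-sided exact interval used for the 9 counts. These limits cover counting error only. *SNAI2* was therefore seen in 1 library and could not be tested between the lines, and without the filter on low counts its edgeR adjusted p was 0.676.

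*VIM* (ENSG00000026025, chr10:17270240-17279592, plus strand) encodes vimentin, the intermediate filament protein of mesenchymal cells. It had 39255 and 40598 counts in FLO-1LM and 34489 and 30647 in parental cells, and ranked from 24th to 27th of all genes by counts in every library. Its CPM of 1762 and 1577 in FLO-1LM and 1565 and 1598 in parental cells overlapped. The means were 1669 ± 131 and 1581 ± 24 CPM (SD, n = 2 each), with a log2 fold change of 0.08 (SE 0.068, 95% interval −0.07 to 0.22, edgeR adjusted p = 0.732). The upper end of this interval, 0.22 log2 units, reflects the spread between libraries, which may be technical. Without the first FLO-1LM library the log2 fold change was −0.0047.

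*ESRP2* (ENSG00000103067, chr16:68262936-68272005, minus strand), an epithelial splicing regulator, was the single gatekeeper with enough counts to test. It had 129 and 261 counts in FLO-1LM and 204 and 149 in parental cells, or 5.79 and 10.1 CPM against 9.25 and 7.77. The FLO-1LM libraries lay on either side of the parental ones, and the second was 1.75 times the first. The log2 fold change was −0.09 (SE 0.24, 95% interval −0.59 to 0.41, edgeR adjusted p = 0.930). Its sign turned without the first FLO-1LM library (0.25) or without the first parental library (0.04). Without the second FLO-1LM library the log2 fold change was −0.56. *ESRP1*, its close relative, had 0 and 3 counts in FLO-1LM and 3 and 1 in parental cells, at or below the limit of detection in each library.

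The transcriptional gatekeepers were at or near 0 in both lines. *GRHL2*, the grainyhead factor that activates *CDH1* and claudin genes, had 0 counts in all 4 libraries. *OVOL2* (chr20:17937623-18039832) also had 0 in all 4, and *OVOL1* (chr11:65554534-65564685) had 2 counts in the second parental library and 0 in the other 3. Each 0 allows up to 3 counts, so a difference between the lines was not detectable for these genes. Of genes that overlap *OVOL2*, *SNX5* shares 59 exon bases with it and had 515 to 863 counts per library. *MGME1* shares 0 exon bases with it and had 348 to 512. These counts were not a test of the values at 0.

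**Figure D1:**
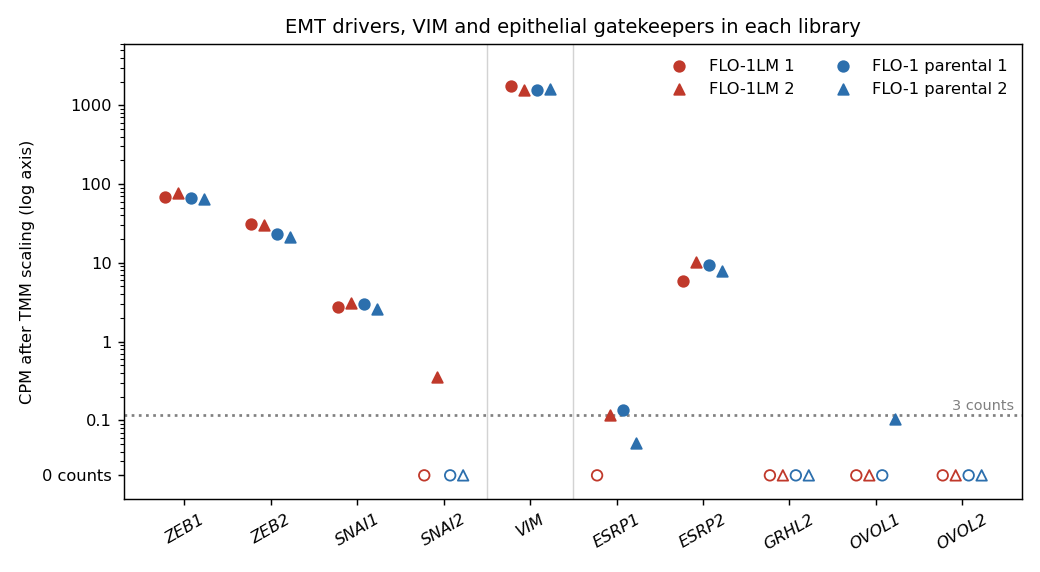
CPM after TMM scaling (log axis) of the 10 genes, with 1 point per library, circles for replicate 1 and triangles for replicate 2, FLO-1LM in red and FLO-1 parental in blue, open symbols for 0 counts, and a dotted line at 3 counts in the deepest library (0.117 CPM). *VIM* sits near 1600 CPM in every library, *GRHL2* and *OVOL2* have no count in any, and *SNAI2* has counts in 1 FLO-1LM library.

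Per kilobase of the canonical transcript, the level followed the order *VIM*, *ZEB1*, *ZEB2*, *ESRP2*, *SNAI1* in FLO-1LM, at 775, 12.2, 3.31, 2.32 and 1.72 CPM per kilobase. In parental cells the level was 734, 11.1, 2.39, 2.48 and 1.64, with *ZEB2* and *ESRP2* not separated (2.30 to 2.47 against 2.27 to 2.70). *ESRP2* and *SNAI1* overlapped in FLO-1LM (1.69 to 2.96 against 1.63 to 1.80). The ratio of *ZEB1* to *ZEB2* per base was 3.44 and 3.94 in FLO-1LM and 4.54 and 4.76 in parental cells, and was not tested. *ZEB1* remained the more abundant of the pair in each library.

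Across the 5 tested members, 1 was called higher and 0 lower by edgeR at an adjusted p below 0.05, where 0.402% of all 17143 tested genes were called higher (69 genes) and 1.83% lower (313 genes). At an unadjusted p below 0.05, *ZEB2* was the single member as well, and DESeq2 called 0 in either direction. The CPM ranges of the lines did not overlap for *ZEB1* and *ZEB2*, 2 of 5, against 42.6% of all tested genes. The median log2 fold change was 0.08, with 4 above 0 and 1 below, and the median over all tested genes was 0.0016. Of these signs, those of *SNAI1*, *VIM* and *ESRP2* turned when 1 library was left out. With 2 libraries per line, the smallest p that an exact two-sided permutation test of 1 gene can give is 0.333, so each call rests on the spread shared across genes in the model.

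**Figure D2:**
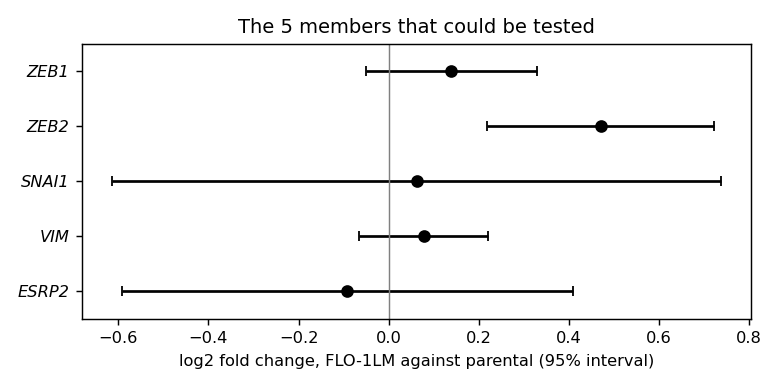
Log2 fold change of FLO-1LM against parental cells for the 5 tested genes, points with 95% intervals from the edgeR fit. The interval of *ZEB2*, 0.22 to 0.72, lies above 0, and those of *ZEB1*, *SNAI1*, *VIM* and *ESRP2* include it.

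**Figure D3:**
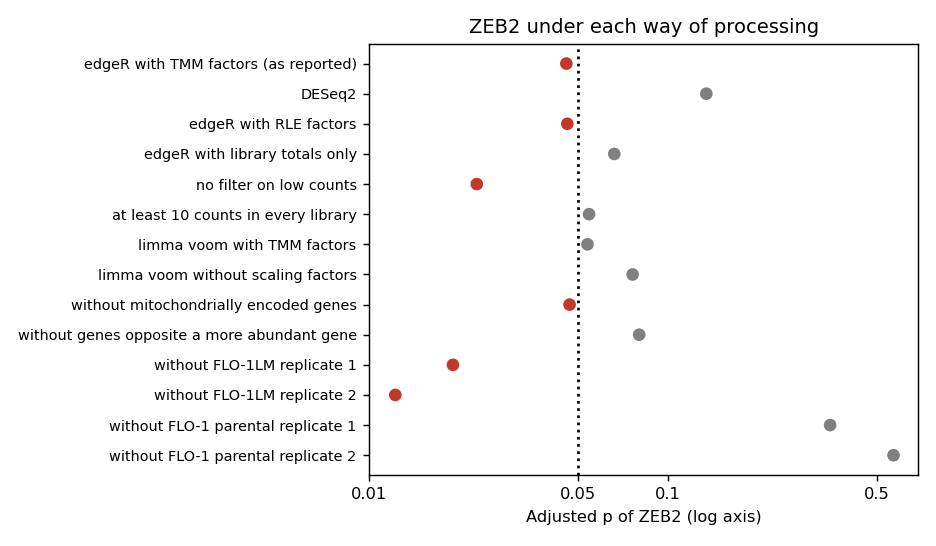
Adjusted p of *ZEB2* (log axis) under each way of processing, with a dotted line at 0.05 and red points where the call was made. Points lie on both sides of the line, between 0.0122 and 0.570, and the call was made in 5 of the 13 alternatives.

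Transcripts opposite *VIM* fell while *VIM* did not pass the test. *VIM-AS1* (chr10:17256238-17272017, minus strand), a long noncoding RNA that runs through the *VIM* start, had 161 and 188 counts in FLO-1LM and 511 and 417 in parental cells. Both FLO-1LM values lay below both parental values. The log2 fold change was −1.63 (SE 0.16, edgeR adjusted p = 6.06e-06). The shorter ENSG00000234961 (chr10:17275324-17276832, minus strand), within *VIM*, had 88 and 42 counts in FLO-1LM and 605 and 497 in parental cells. It fell by 3.28 on the log2 scale (SE 0.25, edgeR adjusted p = 3.74e-07).

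As a share of *VIM* counts, *VIM-AS1* held 0.41% and 0.463% in FLO-1LM and 1.48% and 1.36% in parental cells, and ENSG00000234961 held 0.224% and 0.103% against 1.75% and 1.62%. The exons of *VIM-AS1* share 656 bases with those of *VIM* and the exons of ENSG00000234961 share 619. The library kit keeps strand, but the strand setting of the counting is not given in the sources used here, and without it reads of a gene and its antisense partner cannot be told apart. Of 1171 tested genes opposite a partner counted at least 10 times as deeply, 151 (12.9%) were called lower, and of the 15972 other tested genes 162 (1.01%) were. The part of the strand setting in the fall of these transcripts was not tested.

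**Figure D4:**
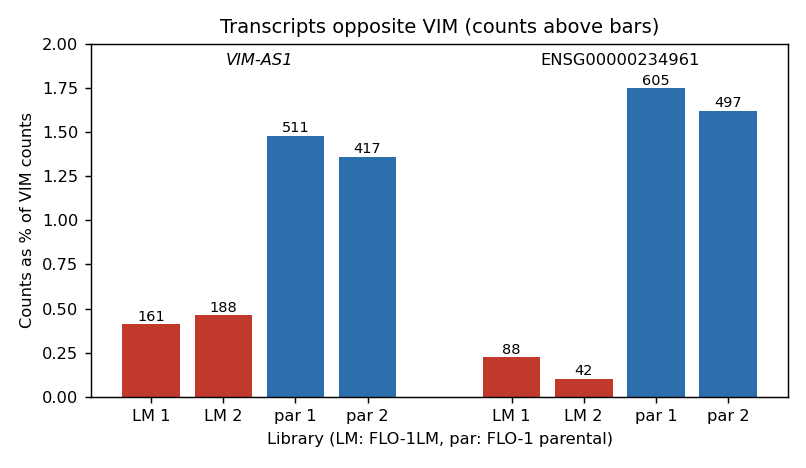
Counts of *VIM-AS1* and ENSG00000234961 as a percent of *VIM* counts in each library (bars from 0, raw counts above the bars, LM for FLO-1LM in red and par for FLO-1 parental in blue). All FLO-1LM bars are at or below 0.463% and all parental bars at or above 1.36%.

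The transcripts opposite the other members gave no call. *ZEB1-AS1*, whose exons share 396 bases with those of *ZEB1*, had 236 and 384 counts in FLO-1LM and 212 and 190 in parental cells (log2 fold change 0.39, SE 0.19, edgeR adjusted p = 0.421). *ZEB2-AS1* had 0 to 3 counts per library, and *NFATC3*, opposite the end of *ESRP2*, had 852 to 1173 (log2 fold change 0.01). On the same strand, the pseudogene *AC009951.1* shares 2966 exon bases with *ZEB2* and had at most 9 counts, against 408 or more for *ZEB2*. ENSG00000262160, a noncoding gene that shares 113 exon bases with *ESRP2* on the same strand and is named after its values were seen, had 24 and 14 counts in FLO-1LM and 76 and 75 in parental cells. It fell by 2.19 on the log2 scale (SE 0.42, edgeR adjusted p = 0.00791), a call lost without the first parental library (−2.27, adjusted p = 0.0965) or the second (−2.09, adjusted p = 0.166). It also lies opposite *NFATC3* and belongs, like both transcripts opposite *VIM*, to the genes with a more deeply counted partner on the other strand, and the part of the strand setting was not tested here either. *OVOL1-AS1* and ENSG00000255404 at *OVOL1* had 0 to 2 counts, and ENSG00000253153 and ENSG00000253991, pseudogenes opposite *GRHL2*, had 5 to 16 and 13 to 31, with ENSG00000254024 there at 0, as was *PTMAP3* opposite *OVOL2*. *SNAI3-AS1*, which overlaps none of the 10 genes, had 73 to 101 counts (log2 fold change −0.19, edgeR adjusted p = 0.873).

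Among 17 other EMT transcription factors and corepressors, 7 could be tested, and 0 were called higher and 0 lower, against 0.402% and 1.83% of all tested genes. *TWIST1*, *TWIST2* and *GSC* had no count in any library. The most abundant were *TCF3*, an E-box binding factor (93.1 CPM in FLO-1LM against 85.5, log2 fold change 0.12), *CTBP1* (73.4 against 70.0, 0.07) and *CTBP2* (59.3 against 66.8, −0.17), corepressors that ZEB proteins recruit, and *SOX4* (37.3 against 33.2, 0.17). At an unadjusted p below 0.05 and with DESeq2 the counts were also 0. The median log2 fold change of the list was −0.141.

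Of 21 mesenchymal effector genes, 14 were tested, and 0 were called higher and 1 lower, against 0.402% and 1.83% of all tested genes. *CDH2*, which encodes N-cadherin, had no count in any library, nor had *CDH11*, *COL3A1* and *THY1*. *MMP2*, a secreted gelatinase, fell from 46.9 ± 3.5 to 30.1 ± 1.7 CPM (log2 fold change −0.64, SE 0.11, edgeR adjusted p = 0.00199), a call lost without the first parental library (−0.56, adjusted p = 0.105). The abundant *S100A4* (log2 fold change −0.20), *AXL* (0.04) and *MMP14* (0.11) did not pass. At an unadjusted p below 0.05, 1 was higher and 4 lower, and DESeq2 called 0 higher and 1 lower. The higher gene was *CALD1*, named after its values were seen, at 3.64 CPM in FLO-1LM against 1.21 in parental cells. Its log2 fold change of 1.60 (SE 0.42) was the largest rise of the list and just missed the threshold (edgeR adjusted p = 0.0553). The median of the list was −0.0064.

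Of 27 epithelial effector genes, 20 were tested, and 0 were called higher and 6 lower, against 0.402% and 1.83% of all tested genes. Of the 20, 7 lay above 0 and 13 below. *CDH1* fell from 84.2 ± 2.4 to 18.1 ± 2.5 CPM (log2 fold change −2.21, SE 0.11, edgeR adjusted p = 1.12e-09). The others were *CDH3* (P-cadherin, −1.26), the tight junction gene *CLDN4* (−1.07), and the keratins *KRT8* (−0.70), *KRT18* (−0.66) and *KRT19* (−1.31), whose reads can be shared with processed pseudogenes. Without the first parental library, *CDH3* (adjusted p = 0.0588) and *CLDN4* (0.056) missed the threshold. The abundant *SPINT2* (−0.04), *DSP* (desmoplakin, −0.16), *OCLN* (occludin, −0.07) and *INADL* (−0.17) did not pass, and the median of the list was −0.103. DESeq2 also called 0 higher and 6 lower, and at an unadjusted p below 0.05, 1 gene was higher and 6 were lower. *CDH1* and the keratins were known from earlier results of these data.

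The ratio of *VIM* to *KRT8* per transcript base was 5.15 and 4.97 in FLO-1LM and 2.99 and 2.92 in parental cells. For *VIM* to *KRT18* it was 6.33 and 5.56 against 3.48 and 3.64. The balance of vimentin message to that of these keratins was higher in both FLO-1LM libraries, with *KRT8* and *KRT18* called lower and *VIM* not called. The less abundant keratin *KRT7* went the other way, at 6.22 CPM in FLO-1LM against 3.99 in parental cells. It was not called (log2 fold change 0.64, edgeR adjusted p = 0.304). Of 6 filament partner genes, 5 were tested and 0 were called, against 0.402% higher and 1.83% lower of all tested genes. Among them were *PLEC* (plectin, log2 fold change 0.07) and *LMNA* (lamin A/C, −0.06), and the unadjusted and DESeq2 counts were 0 too.

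Of 13 other epithelial transcription factors, 9 were tested, and 0 were called higher and 1 lower, against 0.402% and 1.83% of all tested genes. *KLF4*, a factor of differentiated epithelium, fell from 50.3 ± 1.6 to 34.8 ± 3.5 CPM (log2 fold change −0.54, SE 0.10, edgeR adjusted p = 0.00848). That call was lost without the first parental library (−0.50, adjusted p = 0.190) or the second (−0.57, adjusted p = 0.0609). *GRHL1*, the relative of *GRHL2*, was present at 10.3 against 10.5 CPM (log2 fold change −0.02), *KLF5* had 14.6 against 12.2 CPM (0.25) and *TFCP2L1* 8.95 against 9.29 CPM (−0.05). *ELF5* had no count. At an unadjusted p below 0.05, 0 were higher and 2 lower, and DESeq2 called 0 higher and 1 lower.

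Splicing genes beside the ESRP pair did not pass. Of 9 other EMT splicing regulators, 8 were tested and 0 were called, against 0.402% higher and 1.83% lower of all tested genes. *QKI* had no count in any library. *HNRNPM* had a log2 fold change of −0.12, *MBNL2* of 0.22, *PTBP1* of −0.06 and *SRSF1* of −0.03. At an unadjusted p below 0.05, *MBNL2* alone was higher and 0 were lower, and DESeq2 called 0. Of 9 genes with exons spliced by ESRP1 and ESRP2, all were tested and 0 were called, against the same shares of all tested genes. *CTNND1* was at −0.16, *ENAH* at −0.01 and *CD44* at −0.22. At an unadjusted p below 0.05, 0 were higher and 2 lower (*CTNND1* and *CD44*), and DESeq2 called 0. Gene counts do not show which exons were used.

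**Figure D5:**
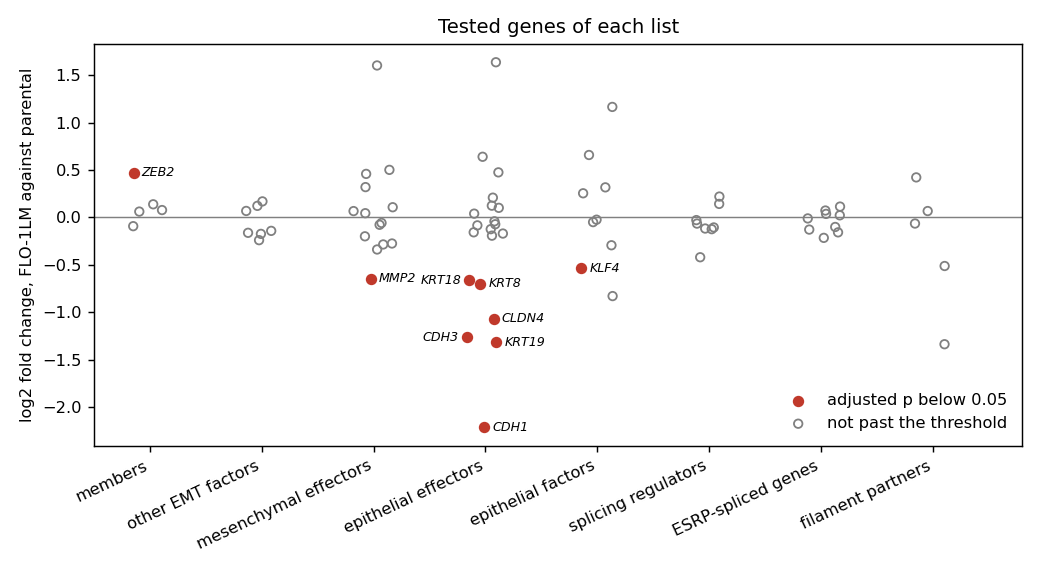
Log2 fold change of FLO-1LM against parental cells for each tested gene of the 10 members and 7 related lists, filled where the edgeR adjusted p was below 0.05. The called genes are *ZEB2* above 0, and *MMP2*, *KLF4* and 6 epithelial effectors below 0.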

How the data were processed

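RNAseq was performed on 2 FLO-1LM and 2 FLO-1 parental libraries. Per the labels and methods, the authors made directional libraries, used bcl2fastq 2.17 and Trimmomatic 0.30, mapped reads to GRCh37 and deposited raw read counts per Ensembl gene. The aligner, counting software and strand setting are not given in the sources used here.

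Genes were kept by filterByExpr (minimum count 10, minimum total 15), which left 17143 of 63677, and the lines were compared by the quasi-likelihood test of edgeR 4.0.16 (R 4.3.3) with TMM factors. P-values were adjusted over all tested genes by the Benjamini-Hochberg method and called below 0.05. Standard errors were derived from the size of the fold change and its F statistic. CPM are after TMM scaling, and fold changes are FLO-1LM against parental. At 19060310 to 25920336 counts per library, precision followed abundance, with a standard error of 0.068 for *VIM* and 0.32 for *SNAI1*. Positions, overlaps and canonical transcript lengths came from GENCODE 44 placed on GRCh37, a later annotation than the one counted.

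Groups came from the labels. The members and lists were chosen with earlier results of these data known. The text names all 10 members, the genes overlapping them, and of each list the called genes, up to 4 of the most abundant that missed, and genes without counts, and 2 genes that it covers are not reported here. *MIR205* and *PECAM1* were not matched. Alternatives were DESeq2 1.42.0, limma 3.58.1 voom with and without TMM factors, RLE factors, library totals, 2 other filters, no mitochondrial genes and each library left out. One added after the data were seen omitted genes opposite a partner counted at least 10 times as deeply. The scripts were tested on simulated data.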

Additional observations from a re-analysis of the deposited data

How the results depend on the processing

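The rise of *ZEB2* kept its direction in all 13 alternatives and its call in 5. It missed with DESeq2 (log2 fold change 0.47, adjusted p = 0.135), library totals only (0.44, 0.0662), a minimum of 10 counts per library (0.46, 0.0545), voom with TMM factors (0.47, 0.0538) or without (0.44, 0.0762), and without genes opposite a more abundant gene (0.46, 0.0802). With each library left out it ran from 0.42 to 0.53, with the call lost without either parental library. The number of members called higher was then 0 in those 8 alternatives and ranged from 0 to 1 with a library left out. No member was called lower in any alternative. With 1 library left out, that line's spread is taken from the other line. The change of *ZEB1* ran from 0.05 to 0.22, that of *SNAI1* from −0.032 to 0.17 (−0.01 without the second FLO-1LM library), that of *VIM* from −0.0047 to 0.16 and that of *ESRP2* from −0.56 to 0.25 (0.04 without the first parental library), with none of these 4 called in any alternative. Among mesenchymal effectors, the number lower was 2 with library totals, with no filter, with at least 10 counts, with voom of either kind and without mitochondrial genes, and *CALD1* brought the number higher to 1 with no filter and with at least 10 counts. With a library left out, the numbers ranged from 0 to 2 lower and 0 to 1 higher there, from 0 to 2 lower for other epithelial transcription factors, from 0 to 1 higher for splicing regulators, from 0 to 1 lower for ESRP-spliced genes and from 4 to 6 lower for epithelial effectors. The cause of these changes was not tested. Calls over all genes ranged from 20 higher and 96 lower without the first parental library to 356 higher and 696 lower without the first FLO-1LM library. Without scaling factors the median of all genes moved to −0.0292. No paired analysis was possible because the labels give the lines no shared replicate numbers, and the numbers used here only name the libraries. The filter on low counts left the 5 members with 0 to 9 counts untested.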
